A study of Mus musculus with 24 samples.

Results

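Visceral fat of male mice whose regulatory T cells lack Pparg was compared with that of females of the same genotype. The comparison took the 4 male and 4 female Pparg knockout libraries of the raw count table, 8 of 24 libraries in all, over genes on chromosomes 1 to 19 and with the labelled batch as a covariate. All 8 libraries were RNA sequencing of total visceral (perigonadal) adipose tissue from mice 27-33 weeks old, labelled PpargFoxp3cre: the Cre recombinase is driven by Foxp3, so the deletion is limited to cells that express Foxp3, which are regulatory T cells. The genotypes set beside it, each with 4 females and 4 males of the same tissue and age, were controls that carry the Foxp3 Cre alone and a knockout of Tbx21 (Tbet) made with the same Cre. Every group therefore carried the Cre, and no group lacked it. By their titles, female and male libraries 1 and 3 belonged to batch 1 and libraries 2 and 4 to batch 2. Each sex thus had 2 libraries per batch. For control female 1 the source name disagrees with the title on the batch, and the title was followed. The labels do not say which step the batch refers to. The labels do not say that the libraries came from separate animals, and p-values measure the spread between these libraries, part of which may be technical.

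Perigonadal fat lies around the uterine horns and ovaries in females and around the epididymis in males. Its adipocytes store triglyceride, and de novo lipogenesis, the making of fatty acids from citrate, is one source of that fat. Sex hormones and glucocorticoids act on the depot through nuclear receptors, and its stromal cells keep a Hox code that records their position along the body axis. Regulatory T cells of visceral fat are known for using PPARγ as a lineage factor. In bulk tissue, fewer cells of a type and less RNA per cell cannot be told apart.

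Female libraries held 13371068 to 31022845 counts and male libraries 15473451 to 27192326. All levels below are CPM (counts relative to the library total) after TMM scaling (trimmed mean of M values, which puts libraries on a common scale). The sex labels held in all 8 libraries: Xist lay between 587 and 758 CPM in females and between 0.0379 and 1.64 CPM in males, while Ddx3y lay between 93.2 and 122 CPM in males and at most at 0.324 CPM in females. Pparg itself, which adipocytes express throughout, was at 129, 241, 269 and 229 CPM in females and at 251, 284, 245 and 225 CPM in males (log2 fold change of males over females 0.22, adjusted p = 0.691). Its level in whole fat cannot check a deletion that is limited to regulatory T cells. Foxp3 was near the detection limit, from 0.0694 to 1.26 CPM in females and from 0.34 to 1.51 CPM in males. The adipocyte hormone Adipoq showed the labelled tissue in every library, at 1770, 3440, 2790 and 3980 CPM in females and at 2230, 2890, 2510 and 1870 CPM in males.

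Several libraries held transcripts of neighbouring tissue. The summed level of 15 genes of epithelia was 21, 206, 325 and 19.6 CPM in females and 121, 6.2, 15.2 and 220 CPM in males, so female 2, female 3, male 1 and male 4 stood apart. Krt5, a keratin of stratified epithelium on this list, was at 69.3 and 116 CPM in females 2 and 3 and at 0 in females 1 and 4. The kidney-type cadherin Cdh16 was at 26.7 CPM in male 1 and 69.5 CPM in male 4, and near 0 in the other 6 libraries (adjusted p = 0.0311). Male 4 also had the highest sum of epididymis genes, 29.1 CPM against 0.377 to 4.21 CPM in the other 7 libraries, and of genes of motile cilia, 438 CPM against 12.4 to 102 CPM. Genes of the ovary, oviduct and uterus summed to 24 to 81.4 CPM in females and to 13.1 to 44.2 CPM in males. Though these sums overlapped, 2 of the 9 tested members were called lower in males, beside 5.17% of all autosomal genes, and none higher. The part of these tissues in the results below was not tested, except through the fits that leave libraries out.

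Smooth muscle stood apart by batch within females. These contractile genes were chosen after their values were seen. Myh11, the myosin heavy chain of smooth muscle, was at 2600, 430, 1550 and 187 CPM in females and at 129, 96.7, 181 and 199 CPM in males. Cnn1, the actin-binding protein calponin, was at 773, 36.4, 450 and 10 CPM in females and at 7.6, 0.837, 12.5 and 11.2 CPM in males. For both genes the batch 1 females were thus far above the batch 2 females, whose levels came close to those of males. Lmod1 and Smtn followed the same order. Acta2 was at 3390, 413, 2160 and 354 CPM in females and at 296, 434, 384 and 190 CPM in males, overlapping in batch 2. Synpo2 was not called (log2 fold change -1.04, adjusted p = 0.277). In batch 2 its males, at 227 and 165 CPM, lay above its females, at 120 and 125 CPM.

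**Figure D1:**
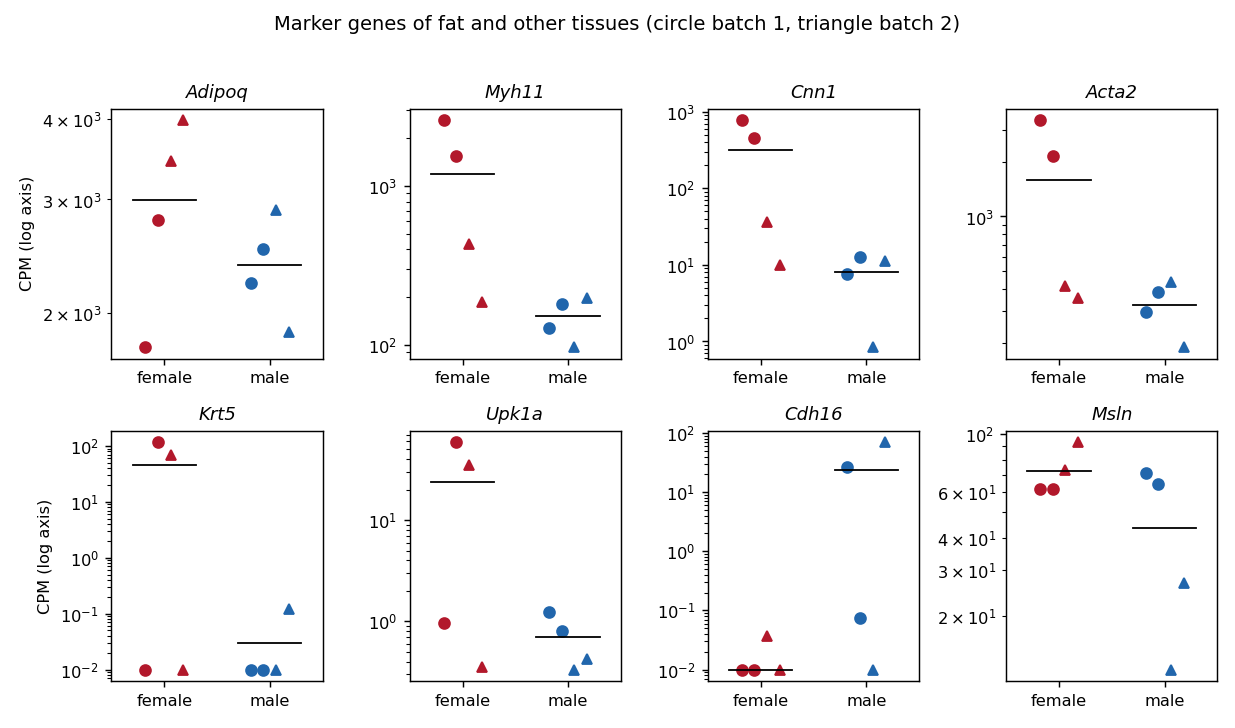
Levels in CPM (log axis) of 8 markers in the 4 female and 4 male Pparg knockout libraries, circles for batch 1 and triangles for batch 2, with a bar at the group mean and values at 0 drawn at 0.01. Adipoq is high in every library, Myh11 and Cnn1 are highest in the batch 1 females, Krt5 stands at 69.3 and 116 CPM in females 2 and 3, and Cdh16 is highest in males 1 and 4.

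Of 16639 autosomal genes tested, 1458 (8.76%) differed between the sexes at an adjusted p under 0.05 in edgeR's quasi-likelihood test. Males were higher in 597 (3.59%) and lower in 861 (5.17%), and 775 of these genes differed by more than 2-fold, 244 higher and 531 lower in males. After the batch mean was removed, the 4 males and 4 females did not overlap for 1265 of the 1458, 515 of them higher and 750 lower in males. Of all genes tested, 3214 (19.3%) did not overlap, 1538 (9.24%) with males higher and 1676 (10.1%) with males lower. The median log2 fold change of all autosomal genes was 0.02. The number of calls rested on few libraries: it was 563 without male 1, 605 without female 1, 664 without male 3 and 969 without female 3. Without the libraries that held more than 100 CPM of epithelial transcripts, which removes 4 of these 8, it was 55. Of the 1453 called genes still tested 1447 kept their sign. The remaining libraries are part of the 8 that called these genes, so a kept sign is in large part fixed by that choice.

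The contrast was larger in batch 1. With a separate term for each batch, an analysis added after seeing the data, 3340 genes (20.1%) were called between the batch 1 libraries and 99 (0.595%) between the batch 2 libraries. Of the 1458 genes, 1458 had the same sign in batch 1 and 1456 in batch 2, and for 1182 the difference was larger in batch 1. Their median absolute log2 fold change was 1.38 in batch 1 and 0.67 in batch 2. The difference between batches itself passed the test for 268 genes (1.61%), 71 of them among the 1458. Since the 1458 genes were called from both batches together, a shared sign is in large part fixed by that choice.

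**Figure D2:**
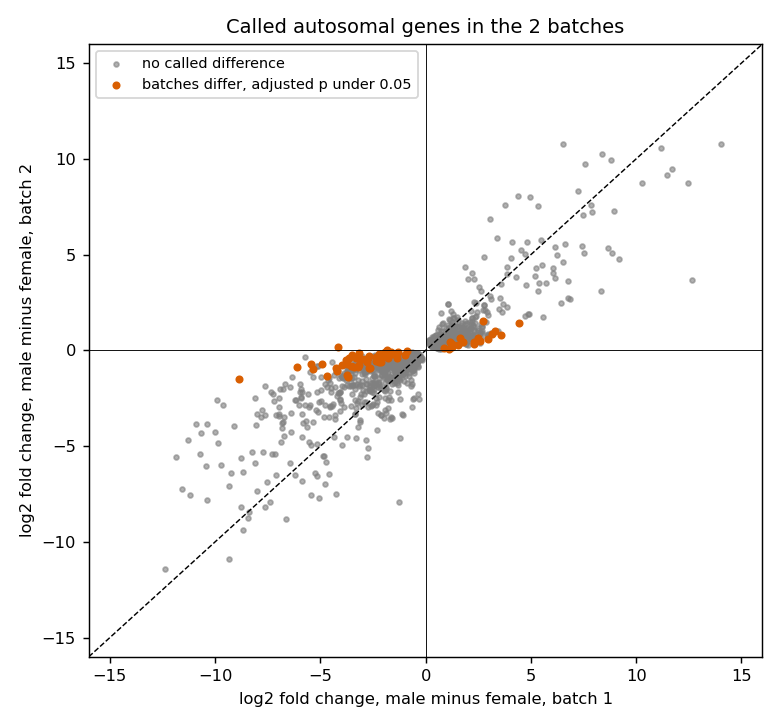
Log2 fold change of males against females in batch 1 (horizontal) and batch 2 (vertical) for the 1458 called autosomal genes, with the 71 whose difference between batches passed the test in orange. Nearly all points lie in the 2 quadrants of shared sign, and 1182 of them lie farther from 0 on the batch 1 axis; the genes were called from both batches together.

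Enzymes that set the local level of sex steroids and glucocorticoids differed in both directions, and Sult1e1 had the smallest adjusted p of all autosomal genes. Sult1e1, the sulfotransferase that inactivates estrogens (Entrez 20860, chromosome 5, 87575968 to 87591611, build GRCm38.p6), was at 0, 0.0376, 0 and 0 CPM in females and at 75.9, 20.8, 116 and 61.5 CPM in males. It was next to absent from all 4 females and present in all 4 males, and the groups did not overlap. The females held 1 count in all against 6588 in males, a ratio of 6560 after scaling (95% interval 1180 to 259000, for counting error only), and the adjusted p was 6.95e-09. The same gene was called in controls and in Tbet knockouts, with fitted log2 fold changes of 11.15 and 9.64.

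Hsd11b1, which regenerates active glucocorticoid inside the cell (Entrez 15483, chromosome 1, 193221640 to 193264045), was at 33.9, 34.7, 43.3 and 31.2 CPM in females and at 240, 87.5, 278 and 100 CPM in males. All 4 males lay above all 4 females, and the batch 1 males above the batch 2 males. The log2 fold change was 2.19 (SE 0.28, adjusted p = 0.000148), or 2.75 in batch 1 and 1.51 in batch 2. Fkbp5, a co-chaperone of the glucocorticoid receptor and a known target of it (Entrez 14229, chromosome 17, 28398753 to 28486149), was at 15.1, 16.2, 19 and 18.2 CPM in females and at 96, 41.9, 140 and 133 CPM in males. The females were tightly grouped and no male reached down to them. Its mean was 17.1 ± 1.79 CPM in females and 103 ± 44.9 CPM in males (SD, n = 4), a log2 difference of 2.57 (SE 0.36, adjusted p = 0.000399) that was similar in size in batch 1 (2.78) and batch 2 (2.34).

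Mt2, a metallothionein that binds zinc and copper and responds to metals and glucocorticoids (Entrez 17750, chromosome 8, 94172618 to 94173567), was at 13.5, 18.1, 15.5 and 14 CPM in females and at 204, 75.6, 122 and 69.3 CPM in males. Every male stood above every female. The means were 15.3 ± 2.07 and 118 ± 62 CPM (SD, n = 4), with a log2 difference of 2.67 (SE 0.57, adjusted p = 0.00773).

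On the other side, females had more of the progesterone receptor Pgr, at 63.5, 2.89, 19.4 and 1.62 CPM against 0.0756, 0.0837, 0 and 0.728 CPM in males (log2 fold change -6.25, SE 1.27, adjusted p = 0.0057). The batch 1 females held most of it, and all females lay above all males. Akr1c14, a hydroxysteroid dehydrogenase, was at 351, 29.8, 103 and 32.9 CPM in females and at 5.82, 8.96, 6.67 and 4.67 CPM in males, again with no overlap (log2 fold change -4.00, SE 0.58, adjusted p = 0.000576). Hsd11b2, which inactivates glucocorticoid and so opposes Hsd11b1, was lower in males (log2 fold change -2.18, SE 0.46, adjusted p = 0.00716). The estrogen receptor Esr1 was at 57.7, 29.9, 34 and 38.8 CPM in females and at 8.28, 14.7, 4.93 and 51 CPM in males, where male 4 lay within the range of females (log2 fold change -1.65, adjusted p = 0.0951). Of 20 tested genes of steroid and growth hormone receptors and metabolism, 4 were higher and 3 lower in males, beside 3.59% and 5.17% of all autosomal genes, with a median of 0.08. One of the 4, Srd5a2, was seen almost only in males 1 and 4, which held the epithelial transcripts.

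Promoters of 3 genes are shown: Sult1e1 as the gene with the smallest adjusted p, Mt2 as a gene with a known class of promoter element, and Slc25a1 as a called member of the lipogenic list. They are the 250 bases before the annotated start, from RefSeq, build GRCm38.p6, written 5′ to 3′ on the gene's strand. Searched on both strands were the metal response element core TGCACNC or TGCGCNC, found in 6796 of 31396 autosomal promoter entries (21.6%) and the E-box CACGTG (1890, 6.02%). Capitals mark a match. A match is a description of the letters and not a site.
Mt2, chr8:94172368-94172617, plus strand, 3 metal response cores: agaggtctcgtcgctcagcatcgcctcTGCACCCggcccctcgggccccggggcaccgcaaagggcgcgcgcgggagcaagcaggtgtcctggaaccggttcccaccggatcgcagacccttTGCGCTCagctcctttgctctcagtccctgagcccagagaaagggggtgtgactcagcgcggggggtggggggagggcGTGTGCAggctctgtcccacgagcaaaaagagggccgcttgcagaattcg
Slc25a1, chr16:17928220-17928469, minus strand, 1 E-box: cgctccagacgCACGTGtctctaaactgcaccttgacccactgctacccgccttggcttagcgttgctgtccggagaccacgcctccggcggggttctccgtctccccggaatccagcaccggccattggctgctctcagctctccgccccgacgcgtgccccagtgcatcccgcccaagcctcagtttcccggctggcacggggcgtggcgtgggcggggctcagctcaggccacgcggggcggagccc
Sult1e1, chr5:87591612-87591861, minus strand, no match: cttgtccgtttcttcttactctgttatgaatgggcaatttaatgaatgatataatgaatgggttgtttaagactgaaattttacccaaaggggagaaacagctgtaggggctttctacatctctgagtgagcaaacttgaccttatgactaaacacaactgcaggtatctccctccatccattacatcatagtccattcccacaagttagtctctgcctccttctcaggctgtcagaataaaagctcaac
The E-box core is bound by several factors of the basic helix-loop-helix class, among them lipogenic ones, and Slc25a1 is the mitochondrial citrate carrier taken up with lipogenesis below. The window of Sult1e1 held none of these letters, which says nothing of any factor beyond this window.

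A complement gene and a collagen gene were also far higher in males. C7, a component of the membrane attack complex (Entrez 109828, chromosome 15, 4987750 to 5063773), was at 5.55, 16.2, 5.16 and 15.6 CPM in females and at 184, 59.2, 211 and 406 CPM in males. The lowest male exceeded the highest female, and the log2 fold change was 4.52 (SE 0.47, adjusted p = 1.74e-05). Col6a5, a chain of collagen VI (Entrez 665033, chromosome 9, 105856070 to 105962463), was at 2.22, 15.6, 5.36 and 12.4 CPM in females and at 152, 64.5, 174 and 260 CPM in males. Here too the groups were apart, with a log2 difference of 4.38 (SE 0.51, adjusted p = 7.97e-05).

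The complement list as a whole did not move one way. Of 20 tested members, 4 were higher and 3 lower in males, beside 3.59% and 5.17% of all autosomal genes, with a median of 0.16. Besides C7, the higher members were C3ar1, the receptor of C3a (0.95), and C4a and C4b (1.26 and 1.18), near-identical copies whose reads may be shared, so neither is certain. C4b also lost its call without female 1, female 3, male 1 or male 3 (adjusted p up to 0.07). C3, the central component, was lower in males, at 1320, 3150, 1590 and 4600 CPM in females and 915, 2110, 1060 and 1750 CPM in males. Raw levels overlapped because batch 2 was higher in both sexes, and within each batch every male lay below every female (log2 fold change -0.77, SE 0.18, adjusted p = 0.0106). Other genes higher in males were the small heat shock protein Hspb7 (2.95, SE 0.38, adjusted p = 0.000154), the potassium channel Kcnj15 (2.42, SE 0.30, adjusted p = 0.000116) and haptoglobin, Hp, which binds free haemoglobin. Hp was at 830, 627, 986 and 774 CPM in females and at 4910, 1930, 4690 and 2880 CPM in males, with no overlap (log2 fold change 2.09, SE 0.38, adjusted p = 0.00256).

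Slc5a7, Sez6l and Iqgap2 were among the other genes with large folds in favour of males. Slc5a7, the choline transporter of cholinergic nerve endings, was at 0, 3.01, 0 and 10.2 CPM in females and at 39.9, 99.2, 33 and 72 CPM in males. It was absent from the batch 1 females and clear of all males in each batch (log2 fold change 4.41, SE 0.85, adjusted p = 0.00403). In controls its log2 fold change was 10.01. The difference between the genotypes was -5.61 on the log2 scale (unadjusted p = 0.00108), which did not pass the adjusted threshold. Sez6l, a membrane protein known from neurons, was at 1.25, 2.4, 1.34 and 3.2 CPM in females and at 18.3, 6.53, 15.4 and 24.3 CPM in males, with no overlap (log2 fold change 3.01, SE 0.41, adjusted p = 0.000366). Iqgap2, a scaffold of the cytoskeleton, was at 11, 20.8, 6.89 and 16.6 CPM in females and at 55.6, 50.4, 40.4 and 99.7 CPM in males (log2 fold change 2.26, SE 0.37, adjusted p = 0.00127). Every male lay above every female.

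**Figure D3:**
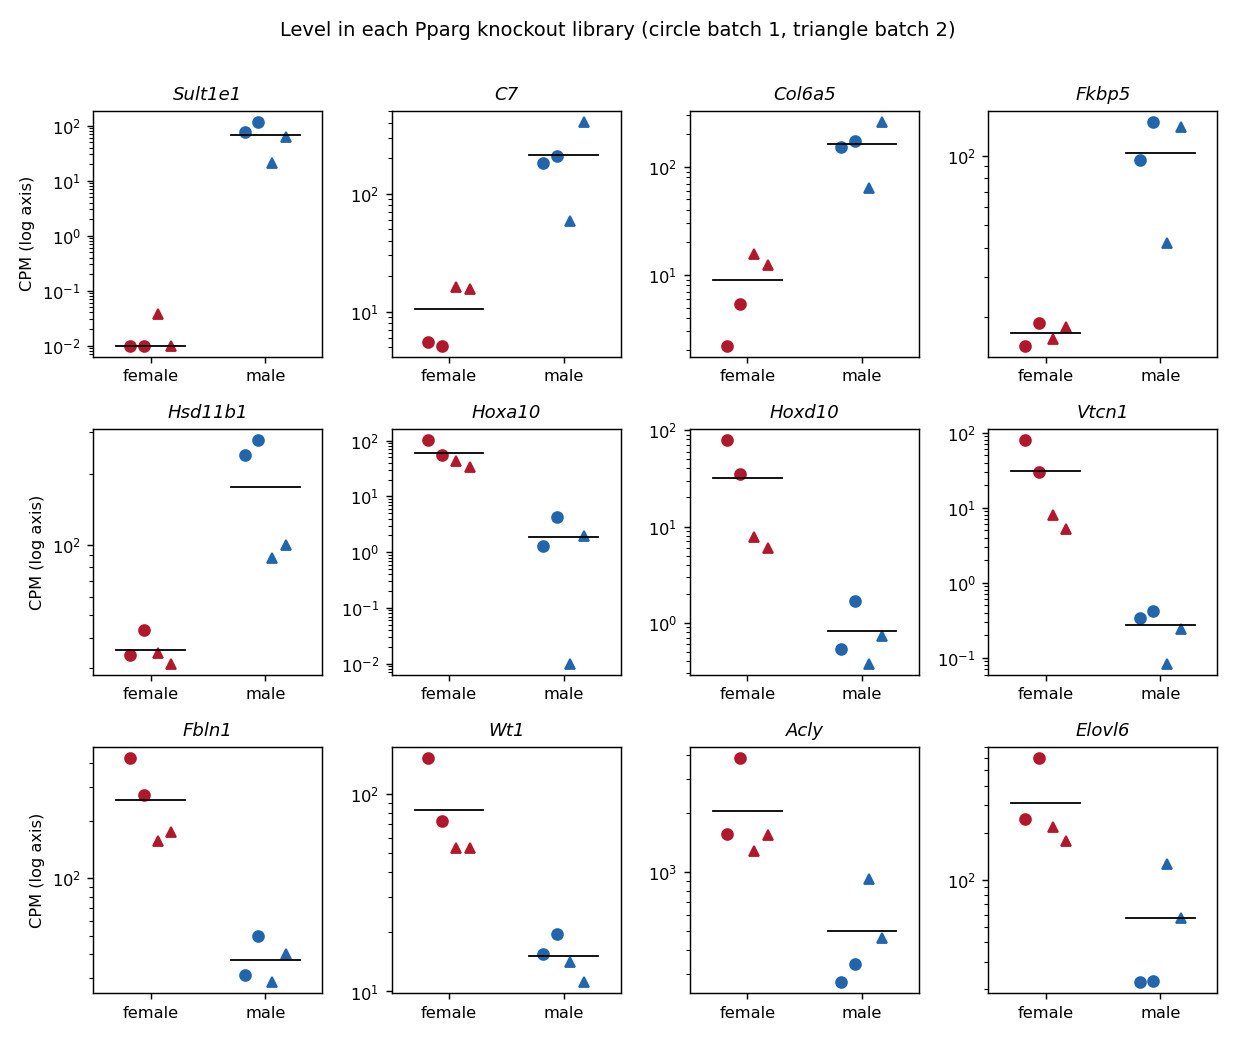
Levels in CPM (log axis) of 12 genes in the 4 female and 4 male Pparg knockout libraries, circles for batch 1 and triangles for batch 2, with a bar at the group mean and values at 0 drawn at 0.01. Sult1e1, C7, Col6a5, Fkbp5 and Hsd11b1 are higher in every male, Hoxa10, Hoxd10, Vtcn1, Fbln1, Wt1, Acly and Elovl6 in every female.

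Posterior Hox genes were higher in females. Hoxa10 (Entrez 15395, chromosome 6, 52231197 to 52240854), a homeobox factor of the posterior body and the uterus, was at 102, 43.6, 55.8 and 34.3 CPM in females and at 1.29, 0, 4.25 and 1.94 CPM in males. The lowest female was several times above the highest male, with means of 59.0 ± 30.2 and 1.87 ± 1.78 CPM (SD, n = 4) and a log2 difference of -5.05 (SE 0.59, adjusted p = 8.55e-05). Hoxd10 (Entrez 15430, chromosome 2, 74684273 to 74695106) was at 78.7, 7.78, 34.7 and 6.05 CPM in females and at 0.529, 0.377, 1.67 and 0.728 CPM in males. It did not overlap either, although the batch 1 females held most of it (log2 fold change -4.87, SE 0.60, adjusted p = 0.000113). Hoxd11 (Entrez 15431, chromosome 2, 74679558 to 74687016) was at 16.7, 1.73, 5.16 and 1.59 CPM in females and at 0.0378, 0, 0 and 0 CPM in males, a ratio of 446 (95% interval 79.6 to 17600, for counting error only).

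Among the 39 tested genes of the Hox and depot position list, 1 was higher and 13 lower in males, beside 3.59% and 5.17% of all autosomal genes, with a median of -0.64. Split by paralogue group, a split chosen after the values were seen, 9 of 11 genes of groups 9 to 13 were lower in males and none was higher, with a median of -4.87. Hoxb9 (0.71, adjusted p = 0.519) and Hoxc9 (-0.80, adjusted p = 0.187) were the other two. Of 21 genes of groups 1 to 8, 1 was higher, Hoxc4, and 1 lower, Hoxd4, with a median of -0.04. Hoxc4 was at 24, 21.5, 20.1 and 19.9 CPM in females and at 41.2, 37.6, 43.6 and 30.9 CPM in males, a small difference with no overlap (log2 fold change 0.82, SE 0.17, adjusted p = 0.0053). In groups 9 to 13 the medians in controls and in Tbet knockouts were -4.07 and -3.61, each with 9 of 11 genes lower in males. The list's count of calls was 11 to 15 when any 1 of the 8 libraries was left out, and 6 without the libraries with epithelial transcripts.

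Hoxa9, Hoxc10 and Hoxd9 were also lower in males. Hoxa9 was at 44.5, 27.3, 25.3 and 20.3 CPM in females and at 2.19, 0.209, 5.31 and 2.97 CPM in males (log2 fold change -3.49, SE 0.50, adjusted p = 0.000485). Hoxc10 was at 40.2, 29.9, 34.7 and 29.2 CPM in females and at 2.42, 0.0419, 8.38 and 1.33 CPM in males (log2 fold change -3.76, adjusted p = 0.00235). In both, every female was above every male, and male 3 was the highest male. Hoxd9 differed less than either, at 35.2, 16.8, 19.7 and 16.6 CPM in females and at 6.47, 4.98, 10.9 and 7.64 CPM in males (log2 fold change -1.53, adjusted p = 0.00235).

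Wt1, a factor of mesothelium and of fat progenitors, was at 151, 53.3, 72.5 and 53.3 CPM in females and at 15.5, 14.1, 19.6 and 11.2 CPM in males. The groups lay far apart (log2 fold change -2.37, SE 0.35, adjusted p = 0.000578). In the mesothelial list all 10 tested members had negative values, with a median of -1.17. Of these, 2 were called, Wt1 and Bnc1, both lower in males, beside 5.17% of all autosomal genes. Its surface antigen Msln was at 61.8, 72.6, 61.6 and 93.2 CPM in females and at 71.2, 12.4, 64.6 and 26.8 CPM in males, where only the batch 2 males were low (log2 fold change -0.82, adjusted p = 0.42). The list's median was -0.24 in batch 1 and -2.21 in batch 2. Bnc1 lost its call when any 1 library was left out (adjusted p 0.0525 to 0.125).

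Of 18 tested genes of de novo lipogenesis, 8 were lower in males, against 5.17% of all autosomal genes, and none was higher. Acly, which cuts citrate to acetyl-CoA (Entrez 104112, chromosome 11, 100476352 to 100528000), was at 1560, 1280, 3830 and 1540 CPM in females and at 274, 920, 336 and 461 CPM in males. No male reached the lowest female, and the batch 1 males were the lowest, with a log2 difference of -2.30 (SE 0.47, adjusted p = 0.00556). Elovl6, which elongates the palmitate chain (Entrez 170439, chromosome 3, 129532386 to 129638495), was at 245, 216, 597 and 178 CPM in females and at 22.4, 127, 22.6 and 57.3 CPM in males. It was separated in the same way, with a log2 difference of -2.88 (SE 0.58, adjusted p = 0.00525), or -4.23 in batch 1 and -1.09 in batch 2. Slc25a1, the carrier that exports citrate from mitochondria and whose promoter is shown above, was at 680, 317, 1400 and 347 CPM in females and at 175, 257, 190 and 148 CPM in males (log2 fold change -1.70, SE 0.34, adjusted p = 0.00452), with male 2 the closest to females.

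The median of the lipogenic list was -0.99, and its summed level overlapped, from 21400 to 49600 CPM in females and from 15700 to 36200 CPM in males. The other members called, some named after their values were seen, were Acaca, the rate-limiting carboxylase (-1.91), the transketolase Tkt (-1.85), the malic enzyme Me1 (-1.52), the acetate-activating Acss2 (-2.09) and Thrsp (-1.41). Fasn, the fatty acid synthase, was at 3360, 6690, 8820 and 7110 CPM in females and at 659, 7020, 1090 and 3020 CPM in males. Male 2 lay within the females, and the test was not passed (log2 fold change -1.83, SE 0.57, adjusted p = 0.0523). Scd1, the desaturase, overlapped fully (log2 fold change 0.33, adjusted p = 0.604), and the lipogenic regulators Srebf1 (-0.58, adjusted p = 0.245) and Mlxipl (-0.31, adjusted p = 0.562) were not called. The list's median was -1.75 in batch 1 and -0.27 in batch 2. Calls in the list numbered 5 to 9 when any 1 library was left out, 9 in batch 1 alone and 0 both in batch 2 alone and without the libraries with epithelial transcripts.

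Most other listed genes of adipocytes did not pass the test. Of 16 tested genes of mature adipocytes, 1 was higher and none lower in males, beside 3.59% and 5.17% of all autosomal genes, with a median of 0.20. The lists of triglyceride synthesis, cholesterol synthesis and oxidative phosphorylation (12, 18 and 17 tested) had no called member, and their medians were 0.01, -0.20 and -0.20. Lep, the hormone that reports fat mass (Entrez 16846, chromosome 6, 29060221 to 29073876), was at 490, 1320, 1140 and 2110 CPM in females and at 3070, 3940, 3860 and 2720 CPM in males. Every male was above every female, with means of 1265 ± 665 and 3398 ± 597 CPM (SD, n = 4) and a log2 difference of 1.46 (SE 0.42, adjusted p = 0.0361). The call was lost when any of females 1, 2 and 3 or males 1, 2 and 3 was left out (adjusted p up to 0.128). Npr3, the clearance receptor of natriuretic peptides, was higher in males by 1.05 (SE 0.29, adjusted p = 0.0317) and lost its call without the same 6 libraries, one at a time (adjusted p up to 0.124). Ucp1, the uncoupling protein of thermogenic fat, was called lower in males through female 2, at 117 CPM against 0 to 2.78 CPM in the other females, and lost its call without that library (adjusted p = 0.0799).

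Several matrix, stromal and contractile genes were higher in females. Fbln1, a fibulin of the extracellular matrix, was at 423, 156, 272 and 174 CPM in females and at 31.3, 28.8, 50.2 and 40.1 CPM in males. The groups were clear of each other in both batches (log2 fold change -2.70, SE 0.26, adjusted p = 6.36e-06). The proteoglycan Lum was at 852, 258, 449 and 335 CPM in females and at 53.4, 132, 29.7 and 96 CPM in males (log2 fold change -2.66, SE 0.52, adjusted p = 0.00409), and Igfbp3, which binds insulin-like growth factors, fell by 2.69 on the log2 scale (SE 0.43, adjusted p = 0.00122). Of 23 tested matrix genes, 4 were lower in males, namely Lum, Postn, Mmp2 and Mmp14, beside 5.17% of all autosomal genes. None was higher, and the median was -0.20. Postn lost its call without female 1, male 1 or male 3 (adjusted p up to 0.075), Mmp2 without any of female 1, male 1, male 3 and male 4 (up to 0.118), and Mmp14 without any library but female 4 (up to 0.166).

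Vtcn1, an inhibitory ligand of T cells from the B7 family that epithelia also express (Entrez 242122, chromosome 3, 100825459 to 100896922), was at 79.6, 7.96, 30.3 and 5.18 CPM in females and at 0.34, 0.0837, 0.417 and 0.243 CPM in males. It was highest in the batch 1 females, yet no female came down to the level of a male (log2 fold change -6.52, SE 0.80, adjusted p = 0.000114). The same order held for Rspo3, an amplifier of Wnt signalling, at 308, 11.5, 145 and 3.88 CPM in females and at 1.63, 1.17, 2.54 and 2.73 CPM in males (log2 fold change -5.09, SE 1.02, adjusted p = 0.00498). Contractile genes followed it: Tagln was at 3800, 367, 1650 and 224 CPM in females and at 181, 75.5, 229 and 94.1 CPM in males (log2 fold change -2.90, SE 0.45, adjusted p = 0.000972). Tagln overlapped between the sexes, because the batch 2 females came near the batch 1 males. Actg2, the enteric smooth muscle actin, fell by 5.12 on the log2 scale (SE 1.01, adjusted p = 0.00473). For Myh11, given above, the log2 fold change was -2.83 (adjusted p = 0.00757), or -3.74 in batch 1 and -1.06 in batch 2. The part of smooth muscle in the other differences of batch 1 was not tested.

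Pcp4, C1qtnf3, Myoc and Pde5a, further genes with large folds in favour of females, were led by the batch 1 females. Pcp4, a calmodulin regulator, was at 359, 26.1, 201 and 4.43 CPM in females and at 0.189, 0, 0.0379 and 0.182 CPM in males (adjusted p = 0.000366). C1qtnf3, a secreted relative of adiponectin, was at 294, 36.2, 165 and 42.6 CPM in females and at 1.66, 2.72, 2.05 and 4.67 CPM in males (log2 fold change -5.44, SE 0.91, adjusted p = 0.00162). Myoc, a secreted glycoprotein, was at 92.2, 26.5, 49.3 and 26 CPM in females and at 0.378, 2.64, 0.265 and 3.46 CPM in males (log2 fold change -5.17, SE 0.87, adjusted p = 0.00174). In all 3 the batch 1 females were the highest, and every batch 2 female was still above every male. Pde5a, which breaks down cyclic GMP, was at 394, 44.3, 176 and 18.4 CPM in females and at 9.98, 9.17, 13 and 12.6 CPM in males, where female 4 came within reach of the males (log2 fold change -3.41, SE 0.65, adjusted p = 0.00378). Clec11a, a growth factor from the list of stromal progenitors, was at 13, 14, 8.7 and 17.4 CPM in females and at 3.06, 3.56, 2.73 and 4.85 CPM in males, apart in both batches (log2 fold change -1.91, SE 0.29, adjusted p = 0.000824). Of 15 tested progenitor genes 3, Clec11a, Cd55 and Il33, were lower in males, beside 5.17% of all autosomal genes, and none was higher. Cd55 lost its call without any library but female 2 and male 2 (adjusted p up to 0.133), and Il33 without any library but male 3 (up to 0.104).

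Angptl8, a feeding-induced inhibitor of lipoprotein lipase made by adipocytes and liver, was at 48.7, 100, 312 and 52.7 CPM in females and at 9.76, 41.7, 11.1 and 13.6 CPM in males. The groups did not overlap, with female 3 far above the rest, as it was for Acly and Elovl6. The log2 fold change was -2.97 (SE 0.74, adjusted p = 0.0178), and the call was lost without female 3, male 1 or male 3 (adjusted p up to 0.0855). In Tbet knockouts the log2 fold change was 0.51. The difference between the knockouts was -3.48 on the log2 scale (unadjusted p = 0.0026), which did not pass the adjusted threshold.

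Of 14 tested imprinted genes, 3 were lower in males, beside 5.17% of all autosomal genes, and none was higher. H19, a maternally expressed non-coding RNA, was at 7.15, 5.18, 4.64 and 4.18 CPM in females and at 0.794, 0.167, 0.341 and 0.789 CPM in males, with no overlap (adjusted p = 0.00393). Meg3, another maternally expressed non-coding RNA, was at 79.9, 170, 56.2 and 203 CPM in females and at 17.6, 88, 14.7 and 80.8 CPM in males (log2 fold change -1.58, SE 0.26, adjusted p = 0.00149). It overlapped in raw level and was apart within each batch. The growth factor adaptor Grb10 was lower by a small step (-0.48) and lost its call without any library but female 4 and male 3 (adjusted p up to 0.0954). Among 24 genes of xenobiotic and retinoid metabolism, 2 were higher and 4 lower in males, beside 3.59% and 5.17% of all autosomal genes. The retinaldehyde dehydrogenases Aldh1a1 (1.11) and Aldh1a3 (0.92) were higher, and the oxysterol hydroxylase Cyp7b1 (-2.18) was lower.

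Genes of regulatory T cells, the cells that carry the deletion, gave no call. Of 18 tested members none was called in either direction, with a median of 0.07, and the summed level of the 19 genes of the list ran from 48.9 to 95.9 CPM in females and from 50.7 to 93 CPM in males. Foxp3 itself had a log2 fold change of 0.60 (adjusted p = 0.607). Il1rl1, the IL-33 receptor that marks regulatory T cells of fat, was at 4.93, 11.8, 2.68 and 14.4 CPM in females and at 6.92, 18, 10.2 and 12 CPM in males (log2 fold change 0.58, adjusted p = 0.335). The sexes overlapped, and batch 2 was higher than batch 1 in each. Il33, the stromal cytokine that this receptor reads, was at 20.4, 24.4, 20.9 and 27.6 CPM in females and at 11.4, 9.25, 17.2 and 14 CPM in males (log2 fold change -0.82, adjusted p = 0.0348). It did not overlap, but its call was lost without any library but male 3 (adjusted p up to 0.104).

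Macrophage genes were called in 2 of 18 and genes of lipid-associated macrophages in 6 of 17, all higher in males, beside 3.59% of all autosomal genes, with medians of 0.53 and 0.60. The first count is small, and 2 of 18 is not far from the 8.76% of all genes called in either direction. Trem2, the lipid-sensing receptor that defines the latter cells, was at 7.36, 7.36, 6.5 and 11.6 CPM in females and at 46.8, 32.5, 19.3 and 15.5 CPM in males. The groups did not overlap, although male 4 came close to female 4 (log2 fold change 1.76, SE 0.41, adjusted p = 0.013). Its call was lost without female 1 or male 1 (adjusted p up to 0.0617). Cd68, a lysosomal protein of macrophages, was at 32.2, 44.7, 23.6 and 63 CPM in females and at 143, 97.5, 75.5 and 67.2 CPM in males, a narrow separation (log2 fold change 1.21, adjusted p = 0.0288) that lost its call without any of females 1, 2 and 3 and males 1 and 2 (up to 0.123). Mertk, the receptor that takes up apoptotic cells, was at 17.4, 40.4, 17.3 and 43.7 CPM in females and at 29.7, 47.7, 38.8 and 71.6 CPM in males, apart within each batch (log2 fold change 0.74, SE 0.14, adjusted p = 0.00341). The medians of the macrophage and lipid-associated lists were 1.03 and 0.84 in batch 1, and -0.06 and 0.30 in batch 2. Calls in the lipid-associated list numbered 1 to 7 when 1 library was left out, being 1 without male 1 and 2 without any of females 1, 2 and 3, and none was made without the libraries with epithelial transcripts.

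Secreted and lysosomal members of the lipid-associated list varied more. Mmp12, the macrophage elastase, was at 0.347, 9.62, 0.861 and 32 CPM in females and at 115, 242, 25.4 and 37 CPM in males. Raw levels overlapped through female 4, and within each batch the males were above the females (log2 fold change 3.54, SE 0.95, adjusted p = 0.0254). Its call was lost without any of females 1, 2 and 3 and males 1 and 2 (adjusted p up to 0.0954). Atp6v0d2, a subunit of the lysosomal proton pump, was at 1.18, 2.25, 0.813 and 5.31 CPM in females and at 18.3, 35.8, 4.55 and 15.4 CPM in males, likewise apart within each batch (adjusted p = 0.00288).

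Lymphocyte lists held few calls. Of 14 pan T cell genes 1 was called, higher in males, beside 3.59% of all autosomal genes. The list's median was -0.015, with 6 values positive and 8 negative, and the T cell marker Cd3e was not called (log2 fold change -0.38, adjusted p = 0.741). The called gene was Cd247, the zeta chain of the T cell receptor complex, at 7.77, 9.5, 6.22 and 14.5 CPM in females and at 25.9, 15, 42.4 and 15.6 CPM in males. The batch 1 males were high and the batch 2 males barely above female 4 (log2 fold change 1.29, adjusted p = 0.0379), and the call was lost without any of females 1, 2 and 3 and males 1 and 3 (adjusted p up to 0.143). No member was called among 15 genes of type 1 and cytotoxic lymphocytes (median 0.38), 14 of B cells and plasma cells (1.07), 21 of the interferon response (0.17) or 18 of antigen presentation (0.01). The B cell median was 1.42 in batch 1 and 0.18 in batch 2. Among 20 cytokines and chemokines 2 were higher and 1 lower in males, beside 3.59% and 5.17% of all autosomal genes, with a median of 0.61. The lower one was Cxcl12, a stromal chemokine (-0.93), which lost its call without female 1, male 1 or male 3 (adjusted p up to 0.0895). The higher ones were Cxcl2, an attractant of neutrophils (2.97), whose call was lost without any of females 1, 2 and 3 and males 1, 2 and 3 (adjusted p up to 0.143), and Lcn2, a siderophore-binding protein, at 4.16, 1.77, 3.01 and 0.971 CPM in females and at 107, 3.06, 14.4 and 133 CPM in males. The large values of Lcn2 were in males 1 and 4, which also held the epithelial transcripts, and the call was kept without male 2 and lost without each of the others (adjusted p up to 0.12).

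**Figure D4:**
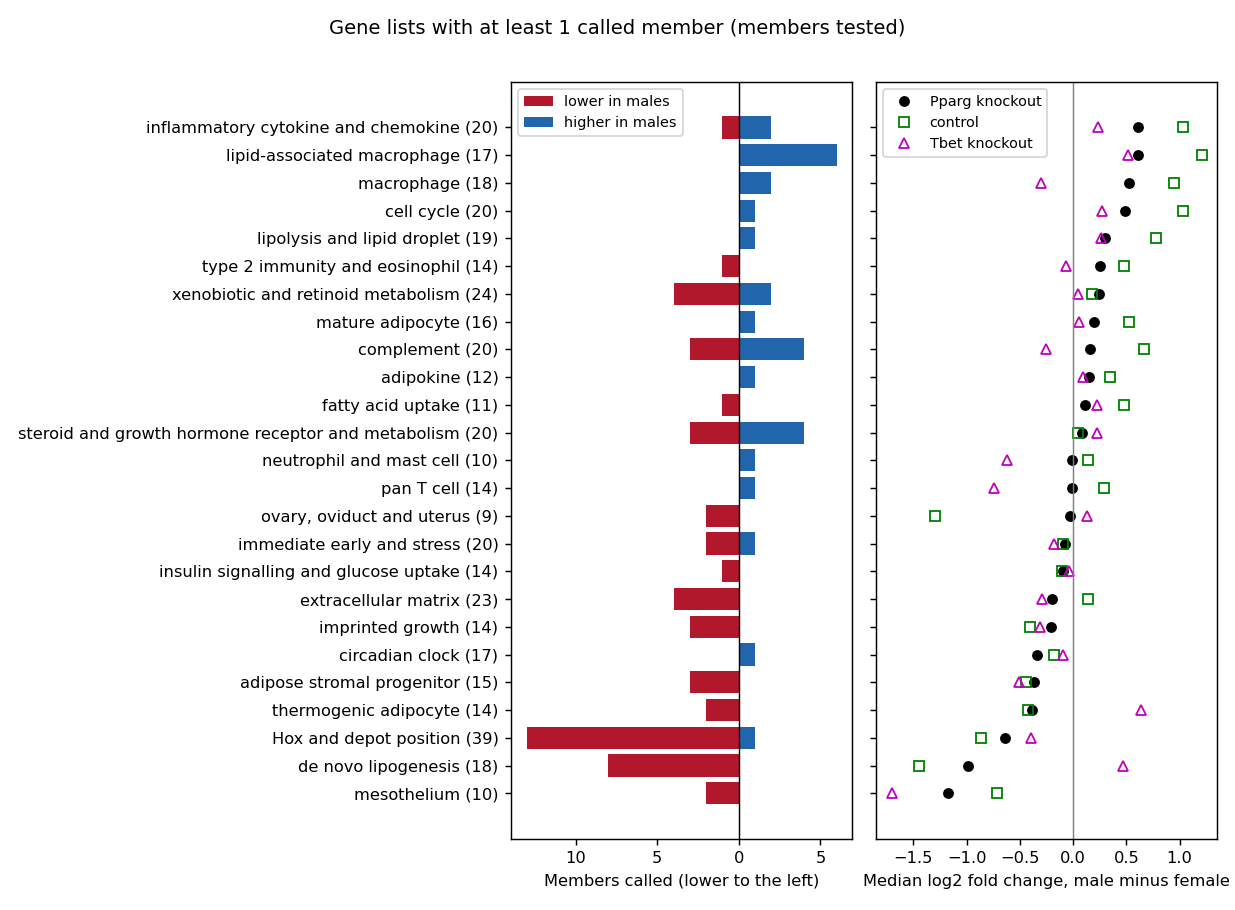
Left, for each gene list with at least 1 called member, the number of its tested members called lower or higher in Pparg knockout males. Right, the median log2 fold change of males against females of each list in Pparg knockouts, controls and Tbet knockouts. The Hox list has 13 lower against 1 higher, lipogenesis 8 lower against 0, and the lipogenesis median is below 0 in Pparg knockouts (-0.99) and controls (-1.45) and above it in Tbet knockouts (0.47).

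The contrast of sexes was then set beside that of the other genotypes, which share no libraries with it. In controls 4572 autosomal genes (27.5%) were called, 2299 (13.8%) higher and 2273 (13.7%) lower in males, and 39.9% had an unadjusted p under 0.05. In Tbet knockouts 1545 (9.29%) were called, 655 (3.94%) higher and 890 (5.35%) lower, and 25.9% had an unadjusted p under 0.05, beside 26.7% in Pparg knockouts. Of the 1458 genes called in Pparg knockouts, 1448 (99.3%) had the same sign in controls, against 77.4% of all genes tested, and 1425 (97.7%) in Tbet knockouts, against 75.9%. Calls with the same sign were made for 1236 (84.8%) in controls and for 819 (56.2%) in Tbet knockouts, and 756 genes were called the same way in all 3 genotypes, 248 higher and 508 lower in males. Over the 4572 genes called in controls, the median log2 fold change in the direction of controls was 0.49 in Pparg knockouts, 0.41 in Tbet knockouts and 0.85 in the controls that chose the genes.

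A difference of the sex contrast between genotypes was not found at the adjusted threshold. In edgeR's quasi-likelihood test 0 genes (0%) were called for Pparg knockout minus control, with 1039 (6.24%) at an unadjusted p under 0.05, and 0 genes (0%) for Pparg knockout minus Tbet knockout, with 660 (3.97%). DESeq2's Wald test called 57 and 30, and limma voom called 0 and 0. Lep had a log2 fold change of 1.46 in Pparg knockouts, 3.30 in controls and 1.53 in Tbet knockouts. Acly was at -2.30 in Pparg knockouts, -3.11 in controls and 0.28 in Tbet knockouts, and the difference between the knockouts was -2.58 (SE 0.64, unadjusted p = 0.000664, adjusted p = 1). Elovl6 went the same way, at -2.88, -4.00 and 0.51. The lipogenic list, with 8 lower in Pparg knockouts, had 11 lower in controls and 1 higher with none lower in Tbet knockouts, and no member's difference between genotypes passed the adjusted threshold. In controls 12 genes of the macrophage list and 10 of the lipid-associated list were higher in males, and in Tbet knockouts 1 and 0 were, differences between counts that were not tested.

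**Figure D5:**
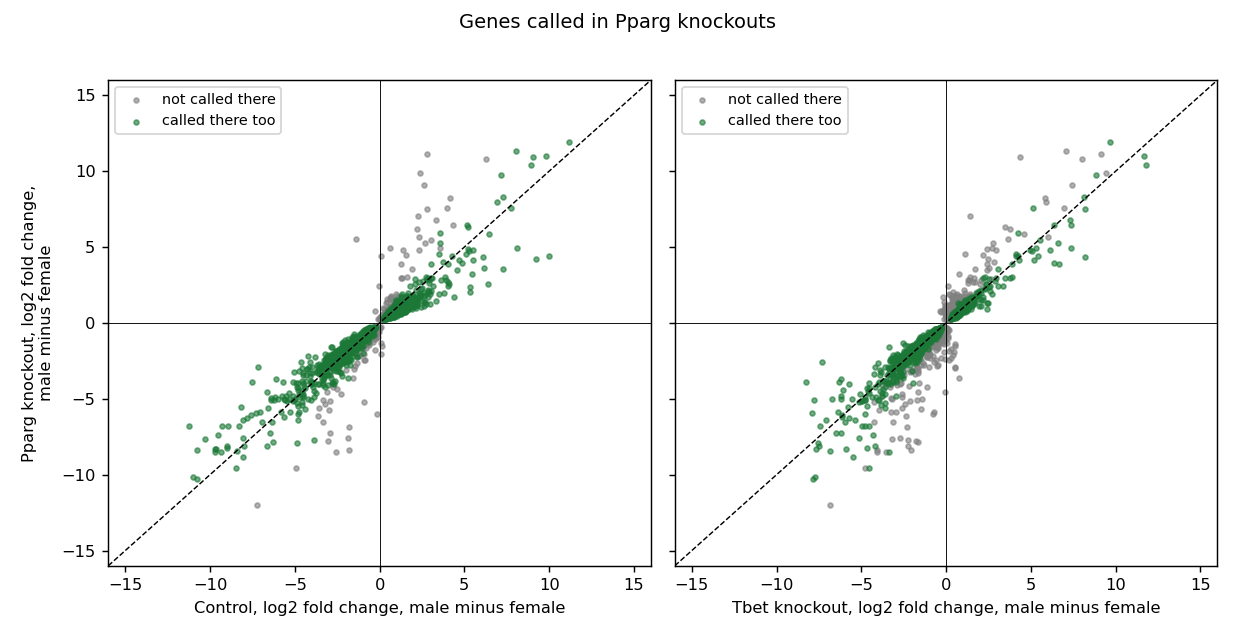
Log2 fold change of males against females in Pparg knockouts (vertical) against that in controls and in Tbet knockouts (horizontal) for the 1458 genes called in Pparg knockouts. Signs are shared for 1448 genes in controls and 1425 in Tbet knockouts; the genes were chosen by the values on the vertical axis.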

How the data were processed

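RNA was extracted from whole fat with a lipid tissue kit and made into TruSeq libraries, per the labels' protocols. The authors deposited raw counts for 27179 genes, and the submitters' processing notes name featureCounts and builds GRCm38 and mm10. Aligner, annotation and versions: not given in the sources used here. Rows without a symbol, 1029 (3.79%), held 0.433% of counts and were tested but not named. The authors also deposited log2 FPKM values, used only for 1 alternative test. The tests used edgeR 4.0.16 in R 4.3.3, with filterByExpr by group (17824 genes kept), TMM and the robust quasi-likelihood test, fitted to 24 libraries in 6 groups plus batch (17 residual degrees of freedom). A call is a Benjamini-Hochberg adjusted p under 0.05 over all genes tested, autosomal or not. The common biological coefficient of variation was 0.404. Positions and promoters came from RefSeq, GRCm38.p6, matched by Entrez identifier for 25275 genes. Log2 fold changes are males minus females, levels are TMM-scaled CPM, and ratios against 1 to 3 counts carry counting intervals. The code was tested on simulated data.

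The members, the 40 lists (591 genes tested) and the tests were chosen with earlier results of these data known. Named by rule were up to 10 genes per direction with the largest fold, then with the largest fold at 10 CPM or more in both sexes, and up to 4 genes per list with a call, by adjusted p, those taken by fold averaging 1 or more in log2 CPM and being free of overlap between the sexes once the batch mean was removed. Other named genes were chosen after their values were seen, among them Cdh16, Krt5, Myh11, Cnn1, Fasn, Scd1, Esr1, Pgr and Srd5a2. A gene that the rule names is not reported here, though counts include it.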

Additional observations from a re-analysis of the deposited data

Results flagged for a closer look

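Of 163 groups of 4 libraries examined for a library far from the rest, 2 were marked, fewer than the share that chance gives at the 95% level used. Xist in female 3, at 587 CPM, lay below the other females, whose lowest was 733 CPM. Mmp2, a matrix metalloprotease, was highest in female 1, at 263 CPM.

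Among the autosomal genes named by rule, 4 had a sex effect that differed between the batches by the test of that difference. Values are on the log2 scale as batch 1 minus batch 2. For Hsd11b1 the difference was 1.24 (adjusted p = 0.0329), the male excess being larger in batch 1. For Elovl6 it was -3.14 (adjusted p = 0.0383), and for Mrvi1, a protein of smooth muscle signalling, -2.43 (adjusted p = 0.0353). For Cd247 it was 1.94 (adjusted p = 0.038). In all 4 the sign was the same in both batches. Genes chosen after their values were seen that also differed included Synpo2 (-3.32, adjusted p = 0.0158) and Smtn (-2.54, adjusted p = 0.0423). Smtn kept its sign, whereas the log2 fold change of Synpo2 was -2.64 in batch 1 and 0.68 in batch 2.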

How the results depend on the processing

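The count of autosomal genes called in Pparg knockouts, 1458, was 2631 with DESeq2's Wald test (1183 higher, 1448 lower in males), 2378 with limma voom (962 and 1416), 498 over the 8 libraries alone (201 and 297), 470 with no batch term (112 and 358), 2466 with a batch term for each sex (1098 and 1368), 43 in batch 2 alone (12 and 31) and 55 without the libraries with epithelial transcripts (17 and 38), an alternative chosen after seeing the data. It ran from 563 to 1667 when 1 library was left out (213 to 712 higher, 330 to 955 lower). With control female 1 placed in batch 2, it was 1058 (405 higher, 653 lower in males), and 1020 of the 1458 genes were still called. The control count became 1774, 2253 and 1230 over its own libraries, with no batch term and in batch 2 alone (2910 to 5014 with 1 library left out). The Tbet knockout count became 2554 with DESeq2, 2694 with voom, 2339 over its own libraries, 475 with no batch term, 400 and 1010 in batches 1 and 2 alone, and 992 without the epithelial libraries (846 to 1374 with 1 left out). The differences between genotypes, 0 and 0, became 57 and 30 with DESeq2, 0 and 6 within batch 1, 0 and 1 within batch 2, and 0 to 1 and 0 with 1 library left out. Some of these fits held fewer libraries, and the cause of the shifts was not tested.

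Replicate numbers showed no sign of pairing libraries: deviations of same-numbered libraries from their group and batch mean correlated at -0.0639 and -0.146. With 2 libraries per group and batch, the deviations mirror each other, so this check cannot settle whether libraries were paired. With a replicate block in place of batch, 1181 genes were called (481 higher, 700 lower), 4246 in controls and 1335 in Tbet knockouts, and the differences between genotypes stayed at 0 and 0.

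Of 86 named genes with a call, 53 kept it when any 1 library was left out and 21 without the epithelial libraries. These counts include the genes on X and Y that check the sex labels, such as Xist and Ddx3y. Their calls are fixed by sex and were never lost, so both shares are lower for autosomal genes alone. None of these 86 reversed its sign under the alternatives run. Genes named only after their values were seen were not part of this check. Among them, Adipoq, Mlxipl, Msln, Scd1, Srebf1 and Synpo2, none of them called, had opposite signs in the separate batches. Of these, only Synpo2 passed the test of the difference between batches (adjusted p = 0.0158). Foxp3 had 0.0694 to 1.51 CPM in the 8 libraries, so its fold is imprecise; whether depth bears on other genes of regulatory T cells was not tested.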
